A study of Mus musculus with 4 samples.

Results

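The BCL2 family of cell survival and cell death genes was followed through thymus RNA sequencing libraries from wild-type and Camk2g knockout mice that had received either vehicle or N-methyl-N-nitrosourea (MNU), an alkylating agent that gives mice T-cell lymphoma. The members were 10 genes taken by symbol from the deposited table of normalised counts (Bcl2, Bcl2l1, Mcl1, Bcl2a1b, Bax, Bak1, Bcl2l11, Bbc3, Pmaip1 and Bid), and all 10 were found among its 10598 gene symbols. All mice were C57BL/6J. The groups were wild type given vehicle, wild type given MNU, CAMKIIgamma-/- given vehicle and CAMKIIgamma-/- given MNU, called here vehicle and MNU wild type and vehicle and MNU knockout. Camk2g encodes the gamma form of CaMKII, a kinase switched on by calcium and calmodulin. MNU had been injected once into the abdomen, at 75 mg/kg, in mice aged 4 to 5 weeks, and the treatment time is labelled as 6 months for MNU and vehicle alike. The labels do not say how the Camk2g allele was made, how many animals stood behind a library, or whether the sampled thymus of a mouse given MNU held a tumour. With 1 library per group, no difference could be checked against replicates and no p-value was computed.

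BCL2 family proteins control the permeability of the outer mitochondrial membrane. Survival members such as BCL2, BCL-XL, MCL1 and A1 hold the pore-forming members BAX and BAK in check, and BH3-only members such as BIM, PUMA, NOXA and BID bind the survival members or activate BAX and BAK directly. In the thymus, BCL-XL and MCL1 sustain immature double-positive thymocytes, BCL2 is high in mature T cells, and BIM is required for the deletion of self-reactive thymocytes.

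The start-site sequences of the member with the largest excess in MNU wild type, that with the largest deficit, and a further pair whose upstream windows hold the motifs searched are shown first. They are the 250 bases before a RefSeq gene start in build GRCm38.p6, printed 5′ to 3′ on the gene's strand, and none overlaps an exon annotated in GENCODE M21. Capitals mark matches, on either strand, to the E-box CACGTG bound by MYC, to the FOXO motif GTAAACA, to the STAT motif TTCNNNGAA and to the motif TGGGAA bound by the NOTCH effector RBPJ, and no matches overlapped one another. The windows were the 1st of the starts listed for Bcl2l11 (chr2:128125788-128126037, plus strand), the single starts of Bcl2 (chr1:106714291-106714540, minus strand) and Bax (chr7:45466899-45467148, minus strand), and a downstream start of Bbc3 (chr7:16310011-16310260, plus strand).
Bcl2l11: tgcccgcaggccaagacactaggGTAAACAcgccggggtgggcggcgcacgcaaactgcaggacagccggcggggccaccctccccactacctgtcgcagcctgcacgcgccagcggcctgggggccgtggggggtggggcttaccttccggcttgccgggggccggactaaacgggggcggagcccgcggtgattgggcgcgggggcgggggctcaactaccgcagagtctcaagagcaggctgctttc
Bcl2: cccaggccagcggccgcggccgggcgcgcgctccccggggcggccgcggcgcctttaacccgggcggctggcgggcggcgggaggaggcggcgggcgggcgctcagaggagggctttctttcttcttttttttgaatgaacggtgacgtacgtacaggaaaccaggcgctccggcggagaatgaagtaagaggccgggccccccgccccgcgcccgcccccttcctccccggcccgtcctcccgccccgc
Bax: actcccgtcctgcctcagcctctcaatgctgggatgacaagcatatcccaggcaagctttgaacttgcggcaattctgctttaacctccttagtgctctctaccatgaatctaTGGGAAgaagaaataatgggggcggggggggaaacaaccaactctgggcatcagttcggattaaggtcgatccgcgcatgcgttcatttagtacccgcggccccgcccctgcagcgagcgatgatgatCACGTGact
Bbc3: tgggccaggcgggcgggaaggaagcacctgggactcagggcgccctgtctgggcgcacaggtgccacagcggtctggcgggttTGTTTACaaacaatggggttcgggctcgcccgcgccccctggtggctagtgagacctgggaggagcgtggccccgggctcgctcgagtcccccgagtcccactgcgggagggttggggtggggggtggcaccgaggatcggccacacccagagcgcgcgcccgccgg

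The FOXO motif began 227 bases before the Bcl2l11 start and 167 bases before that Bbc3 start, and the E-box began 9 bases before the Bax start. Over the 14 windows of the 9 members searched, the FOXO motif was in 2 (Bcl2l11 and Bbc3), the E-box in 2 (Bax and another start of Bbc3), the RBPJ motif in 2 (Bax and Bcl2a1b) and the STAT motif in 0. Among all 32851 promoter windows of that length, the shares that held them were 3.17% for the FOXO motif, 6.02% for the E-box, 21.6% for the RBPJ motif and 7.02% for the STAT motif. The Bcl2 window held none of these letters. The promoter of Pmaip1 is not shown.

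A few facts of the series touch every comparison. Normalised counts summed to between 32911362 and 34836257 per library. Camk2g stood at 2749 in vehicle wild type, 3173 in MNU wild type, 489 in vehicle knockout (17.8% of the level in vehicle wild type) and 29.7 in MNU knockout (1.08%). MNU wild type stood apart from the other libraries across the genome: it was the highest or the lowest of the 4 libraries for 87.7% of the 10587 genes with a mean of at least 10. Genes high in MNU wild type were also raised in the vehicle knockout library: 42 of 42 genes that exceeded 1000 units in MNU wild type, and exceeded 20 times the level of vehicle wild type and of MNU knockout, were raised there, at a median share of 15.4% of the MNU wild-type level. Camk2g was not among the 42 genes, and with that share subtracted it stood at 1.15 in vehicle knockout (0.042% of the level in vehicle wild type). Whether material or reads of these libraries were mixed was not tested, and each value of the vehicle knockout library carries this limit. Values with the share subtracted are given beside the main results that rest on that library.

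Among the survival genes, Bcl2 differed most. Bcl2 stood at 2264 normalised counts in vehicle wild type, 279 in MNU wild type, 2481 in vehicle knockout and 2711 in MNU knockout. MNU wild type was thus far below the other libraries, at 8.12-fold under vehicle wild type, and 3.38% of all genes had a lower log2 difference. The MNU knockout library held the most Bcl2, 9.73-fold above its wild-type counterpart.

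Bcl2l1, the gene of BCL-XL, stood at 6708 in vehicle wild type, 3403 in MNU wild type, 4312 in vehicle knockout and 5372 in MNU knockout. It was 1.97-fold lower with MNU in wild type, just inside the 2-fold rule, and was the member that differed most between the genotypes without MNU, at 1.56-fold lower in the knockout. Mcl1, a short-lived survival protein needed at several stages of thymocyte development, stood at 16625, 10412, 13428 and 15723 in vehicle wild type, MNU wild type, vehicle knockout and MNU knockout. The lowest of these levels was 1.60-fold under that of vehicle wild type, and the MNU knockout lay within 1.06-fold of vehicle wild type.

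Bcl2a1b, which encodes a form of A1, a survival protein known in haematopoietic cells, stood at 1081 in vehicle wild type, 546 in MNU wild type, 1267 in vehicle knockout and 1786 in MNU knockout. It was 1.98-fold lower with MNU in wild type and 3.27-fold higher in knockout than in MNU wild type. The near-identical copies Bcl2a1a and Bcl2a1d had the same order of libraries, at 796, 375, 932 and 1387 and at 1003, 458, 1151 and 1639. Reads can be shared or split between these copies, so their separate values are uncertain and are not separate measurements.

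**Figure D1:**
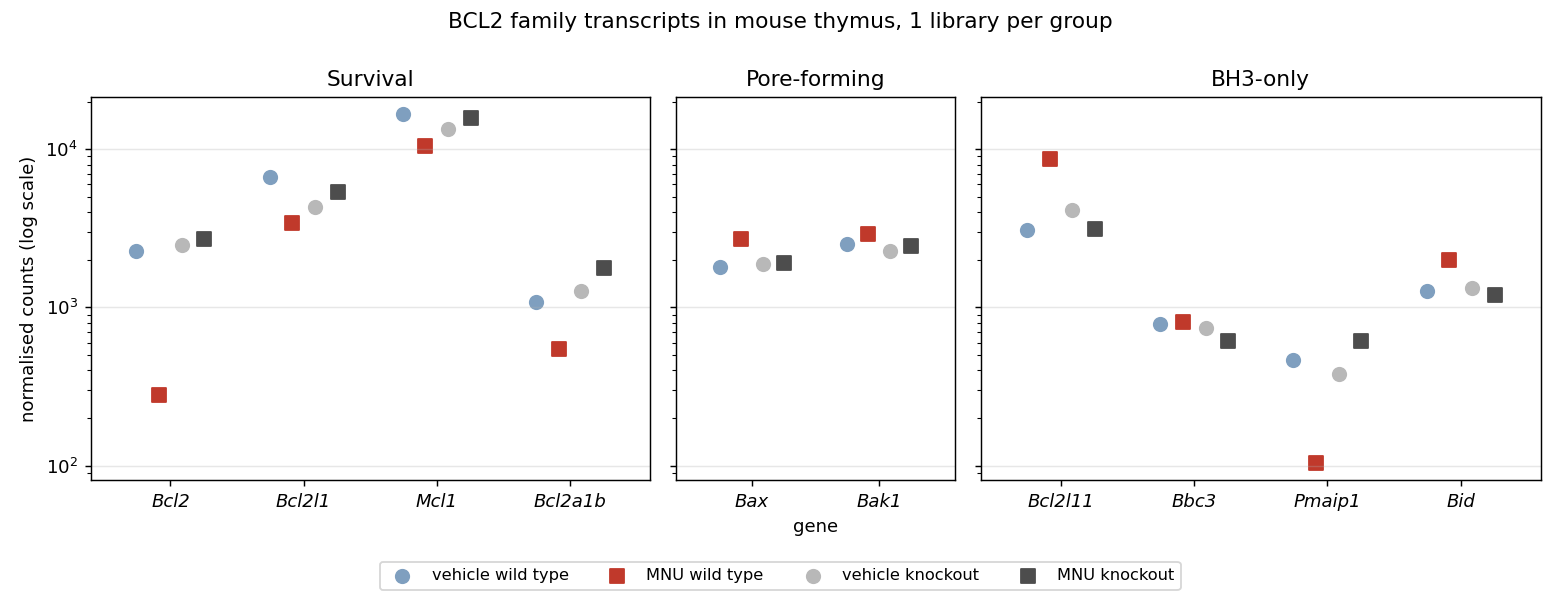
Normalised counts (log scale) of the 10 members in the 4 libraries, 1 point per library, grouped by role. MNU wild type (red squares) is the lowest library for the survival genes and for Pmaip1, with Bcl2 at 279 against 2264 without MNU, and the highest for Bcl2l11, at 8652 against 3066.

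The pore-forming members, Bax and Bak1, differed little. Bax stood at 1798 in vehicle wild type, 2723 in MNU wild type, 1891 in vehicle knockout and 1899 in MNU knockout, so that MNU wild type was 1.51-fold above vehicle wild type while both knockout libraries lay close to the latter. Bak1 stood at 2502, 2919, 2274 and 2430 in the same order, a range of 1.28-fold from the lowest to the highest library.

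The BH3-only genes went in different directions. Bcl2l11, which encodes BIM, stood at 3066 in vehicle wild type, 8652 in MNU wild type, 4133 in vehicle knockout and 3119 in MNU knockout. The level in MNU wild type was 2.82-fold that without MNU, and 3.75% of all genes had a higher log2 difference. Without the share of the wild-type MNU profile, the vehicle knockout library stood at 3312, next to the 3066 of vehicle wild type. Pmaip1, the gene of NOXA, which binds MCL1, stood at 464, 104, 380 and 614 in vehicle wild type, MNU wild type, vehicle knockout and MNU knockout. It was 4.46-fold lower with MNU in wild type and 5.90-fold higher in knockout than in MNU wild type, the opposite direction to Bcl2l11.

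Bid, whose protein is cut by caspase-8 and links death receptors to mitochondria, stood at 1264 in vehicle wild type, 2003 in MNU wild type, 1332 in vehicle knockout and 1203 in MNU knockout, so that MNU wild type was 1.58-fold above its counterpart. Bbc3, the gene of the p53-induced PUMA, stood at 785, 810, 736 and 616 in the same order. The wild-type libraries were within 1.03-fold of one another, and the MNU knockout held the least. Bcl2l11 and Bbc3 each had a FOXO motif in a window above. With MNU in wild type Bcl2l11 was 2.82-fold higher, and Bbc3 was near its level without MNU. Foxo1, which encodes a factor that binds this motif, was 2.65-fold higher in that comparison (3046 without and 8067 with MNU). Foxo3, a related gene, stood at 1741 without and 1972 with MNU. A link of Foxo1 or Foxo3 to either gene was not tested. A match to the motif is a description of the letters and not of binding.

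With genes called where log2(value + 10) differed by 2-fold or more, 1 of 10 members was higher with MNU in wild type (Bcl2l11), where 7.14% of all genes were, and 2 of 10 were lower (Bcl2 and Pmaip1), where 14.2% were. These shares are near the background. Bcl2l1 and Bcl2a1b lay just inside the rule, and with upper-quartile scaling both passed it, so that 5 of 10 members did. At 1.5-fold, 4 of 4 survival genes were lower, as was Pmaip1 among the 6 death genes, against 22.7% of all genes, and Bax, Bcl2l11 and Bid were higher, against 17.2%. The median log2 difference was -0.97 for the survival genes and 0.41 for the death genes, and -0.005 over all genes. All 10 members had their highest or lowest level in MNU wild type, 5 each way, which 87.7% of all genes also did.

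With MNU in the knockout, 0 of 10 members were at least 2-fold higher, against 0.331% of all genes, and 0 of 10 were at least 2-fold lower, against 2.95%. The members' ratios of the level with MNU to that without ran from 0.755 for Bcl2l11 to 1.61 for Pmaip1. Survival genes had a median log2 difference of 0.27 and death genes one of -0.07, against 0.013 over all genes. With the share subtracted from the vehicle knockout library, these ratios ran from 0.852 for Bbc3 to 1.43 for Pmaip1, that of Bcl2l11 was 0.942 and that of Bcl2 turned from 1.09 to 0.941.

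The difference of the MNU changes, knockout minus wild type on the log2(value + 10) scale, was at least 1 for Bcl2 (3.10), Pmaip1 (2.73), Bcl2a1b (1.46) and Bcl2l1 (1.29), where 15.8% of all genes were at or above 1. It was -1.90 for Bcl2l11, where 9.53% of all genes were at or under -1, and lay between -0.81 and 0.90 for the other members. With the share subtracted these differences were 2.89 for Bcl2, 2.56 for Pmaip1, 1.32 for Bcl2a1b, 1.24 for Bcl2l1 and -1.58 for Bcl2l11. The direction of the MNU change was opposite in the genotypes for 8 of 10 members, all but Bax and Bak1, and for 65.4% of all genes. A share of the MNU wild-type profile in the vehicle knockout library moves the knockout change of a gene opposite to its wild-type change, and with the share subtracted the count was 7 of 10 members and 45.8% of all genes. The count was 9 of 10 with median-of-ratios scaling (66% of all genes) or upper-quartile scaling (66.1%), where Bax turned as well.

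**Figure D2:**
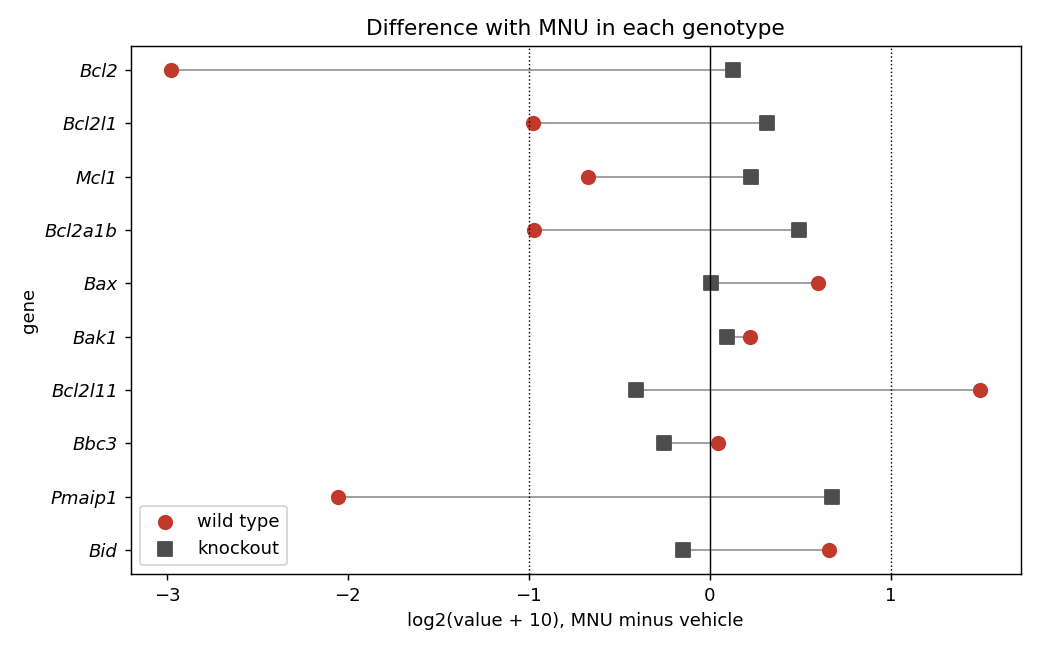
Difference with MNU on the log2(value + 10) scale for each member, in wild type (red circles) and knockout (dark squares), 1 library per group, with dotted lines at the 2-fold rule. The red circle of Bcl2 lies at -2.98 and its dark square at 0.13, while those of Bcl2l11 lie at 1.49 and -0.41.

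Levels can be set between genes only per length, and they were divided by the union of exons in GENCODE M21, which may not be the annotation the authors counted on. Per kilobase, Mcl1 was the most abundant member in all 4 libraries, from 3046 units in MNU wild type to 4864 in vehicle wild type. It made up 61.6% of the summed survival level per kilobase in vehicle wild type and 67.9% in MNU wild type, where Bcl2 made up 0.678%. In vehicle wild type Bcl2l1 and Bcl2a1b followed Mcl1, at 1463 and 1323 per kilobase. In MNU wild type Bax (1728), Bak1 (1213) and Bcl2l11 (1078) were next after Mcl1.

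Summed per kilobase, the survival genes stood at 7897 in vehicle wild type, 4487 in MNU wild type, 6691 in vehicle knockout and 8253 in MNU knockout. The 6 death genes stood at 3458, 5001, 3520 and 3457 in the same order. The survival sum was thus 2.28 times the death sum in vehicle wild type, 0.897 times in MNU wild type, 1.90 times in vehicle knockout and 2.39 times in MNU knockout. Without Bcl2a1b, whose reads may belong to its copies, these ratios were 1.90, 0.764, 1.46 and 1.76. With the share subtracted, the vehicle knockout stood at 7091 for the survival sum and 3251 for the death sum, a ratio of 2.18, or 1.65 without Bcl2a1b. BIM transcripts made up 11.0% of the death sum in vehicle wild type and 21.5% in MNU wild type, and transcript sums do not give protein amounts or activity.

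The balance between particular death and survival genes was compared for 8 pairs, whose change between libraries does not depend on gene length. In MNU wild type, 6 of 8 pairs were shifted at least 2-fold toward the death gene relative to vehicle wild type. The share over other pairs of genes was not computed, so the counts of pairs have no background beside them. Bcl2l11 to Bcl2 was shifted 22.9-fold, Bax to Bcl2 12.3-fold, Bcl2l11 to Bcl2l1 5.56-fold and Bcl2l11 to Mcl1 4.51-fold. Bak1 to Mcl1 was shifted 1.86-fold, and Pmaip1 to Mcl1 went the other way, at 0.358 of its value without MNU. In MNU knockout, 0 of 8 pairs were at least 2-fold above vehicle wild type, and their ratios ran from 0.849 (Bcl2l11 to Bcl2) to 1.40 (Pmaip1 to Mcl1). In vehicle knockout, Bcl2l11 to Bcl2l1 was 2.10-fold above vehicle wild type, and with the share subtracted its log2 change of 1.07 was 0.69, within 2-fold. Pairs that share a gene are not separate observations.

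**Figure D3:**
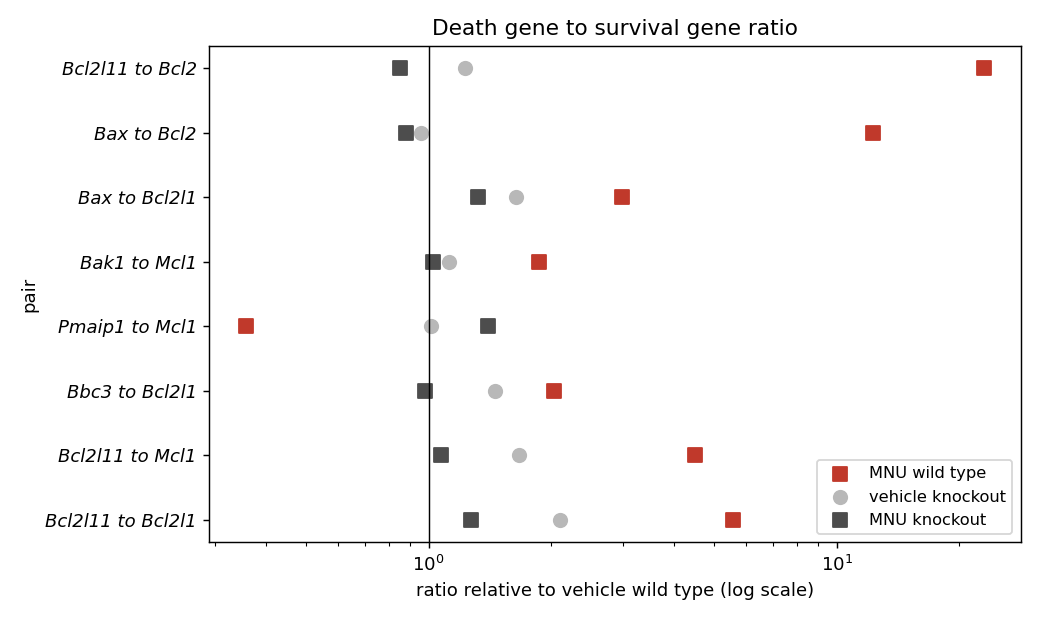
Ratio of a death gene to a survival gene in 3 libraries relative to vehicle wild type (log scale), 1 point per library for each of 8 pairs. MNU wild type (red squares) lies right of 1 for all pairs but Pmaip1 to Mcl1 (0.358), up to 22.9 for Bcl2l11 to Bcl2, and MNU knockout lies between 0.849 and 1.40.

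Without MNU, loss of Camk2g left 0 of 10 members at least 2-fold higher, against 2.59% of all genes, and 0 of 10 at least 2-fold lower, against 0.359%. At 1.5-fold Bcl2l1 was lower, against 1.49% of all genes, and 1.11% of genes had a lower log2 difference than Bcl2l1. This call was lost with the share subtracted, where its log2 difference of -0.64 became -0.58, and with MNU knockout in place of the vehicle knockout library, where it was -0.32. Mcl1 stood at 0.808 of the wild-type level, Pmaip1 at 0.819 and Bcl2l11 at 1.35. With the share subtracted these ratios were 0.667 for Bcl2l1, 0.841 for Mcl1, 0.927 for Pmaip1 and 1.08 for Bcl2l11. Bcl2l1 was also lower in MNU knockout than in vehicle wild type, at 0.801 of its level. The double-positive thymocyte markers had a median log2 difference of -0.43 (0 of 13 past 2-fold, summed level 413677 in vehicle wild type against 289903). Their part in the Bcl2l1 difference was not tested.

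Between the libraries with MNU, 3 of 10 members were at least 2-fold higher in the knockout (Bcl2, Bcl2a1b and Pmaip1), against 15% of all genes, and 1 of 10 was lower (Bcl2l11), against 7.37%. The survival genes had a median log2 difference of 1.17 and the death genes one of -0.45, against 0.009 over all genes. This comparison and that of MNU in wild type share the MNU wild-type library, so that the same library sets both. Against vehicle wild type, the MNU knockout had 0 of 10 members at least 2-fold higher, against 1.57% of all genes, and 0 of 10 at least 2-fold lower, against 1.11%. The member farthest from 1 in that comparison was Bcl2a1b, at 1.65 times the level of vehicle wild type.

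Family genes outside the 10 members extended the range. Bcl2l2, the gene of BCL-W, stood at 998 in vehicle wild type, 151 in MNU wild type, 1030 in vehicle knockout and 1029 in MNU knockout. It was thus at least 2-fold lower with MNU in wild type, as 14.2% of all genes were, and the other survival genes measured outside the members were the A1 copies, which are not separate measurements. Bok, a BAX-like gene, stood at 450, 64.9, 553 and 336 in the same order. Unlike the pore-forming members, it was 6.93-fold lower with MNU in wild type and 5.17-fold higher in knockout than in MNU wild type. Of the 3 other BH3-only genes measured, 2 (Bmf and Bik) were higher with MNU in wild type, where 7.14% of all genes were. Bmf, whose protein binds survival members, stood at 2269, 7611, 4103 and 2411, and Bik at 32.7, 332, 89.3 and 42.9, while Bad stood at 767, 758, 815 and 765. Among these 3 BH3-only genes, Bik was the only one past 2-fold in knockout against vehicle wild type, and with the share subtracted it stood at 45.1 in the knockout. Bmf stood there at 1.81 times the level of vehicle wild type, and at 1.53 times with the share subtracted. Bcl2a1c, Bcl2l10 and Hrk were not analysed here.

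Downstream of the mitochondria, most transcripts were near their levels without MNU. Of 20 genes for caspases, their activators and inhibitors, 2 were at least 2-fold lower with MNU in wild type and 18 were within 2-fold, at a median log2 difference of -0.04. Birc3, an inhibitor of apoptosis and one of the lower genes, stood at 2098 without and 898 with MNU. Of 10 death receptor genes 2 were lower, Cflar, an inhibitor of caspase-8, at 2.88-fold and the ligand Tnfsf10 at 2.36-fold, with a median of -0.51. Of 8 other BCL2-related genes and of 10 genes for turnover of MCL1, NOXA and BIM proteins, 0 were past 2-fold. Between MNU and vehicle knockout, 0 of the genes in any of these lists were past 2-fold, where 0.331% of all genes were higher and 2.95% lower. The counts with MNU in wild type stand beside the 7.14% of all genes that were higher and 14.2% that were lower in that comparison.

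Genes upstream of the family were described in the same way. Of 11 genes of IL-7 and common gamma chain signalling, a pathway that sustains BCL2 in T cells, 6 were at least 2-fold lower and 1 higher, at a median log2 difference of -1.02. These counts, too, stand beside 14.2% of all genes lower and 7.14% higher. Il7r stood at 1702 in vehicle wild type, 116 in MNU wild type, 3061 in vehicle knockout and 2587 in MNU knockout. The stromal cytokine Il7 stood at 694, 6.40, 891 and 679 in the same order, Il4ra was 4.56-fold lower in MNU wild type, and Il2ra was 3.81-fold higher. Between MNU and vehicle knockout, 0 of 11 were past 2-fold, where 0.331% of all genes were higher and 2.95% lower. Of 16 known transcriptional regulators of family genes, 1 was higher (Foxo1) and 4 were lower with MNU in wild type: the NF-kappaB subunit Rel (3.69-fold), Ddit3 (3.42-fold), Nr4a1 (3.10-fold) and Tcf7 (2.07-fold). Of 15 p53 target genes 1 was higher (Zmat3, 3.61-fold) and 3 were lower (Perp 24.1-fold, Btg2 3.33-fold and Phlda3 2.68-fold), at a median of -0.08. The counts of regulators and p53 targets lie near the shares of all genes. Trp53 itself stood at 4198 without and 3674 with MNU. Between MNU and vehicle knockout, 0 of these 16 regulators and 0 of the 15 p53 targets were past 2-fold, against 0.331% of all genes higher and 2.95% lower.

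**Figure D4:**
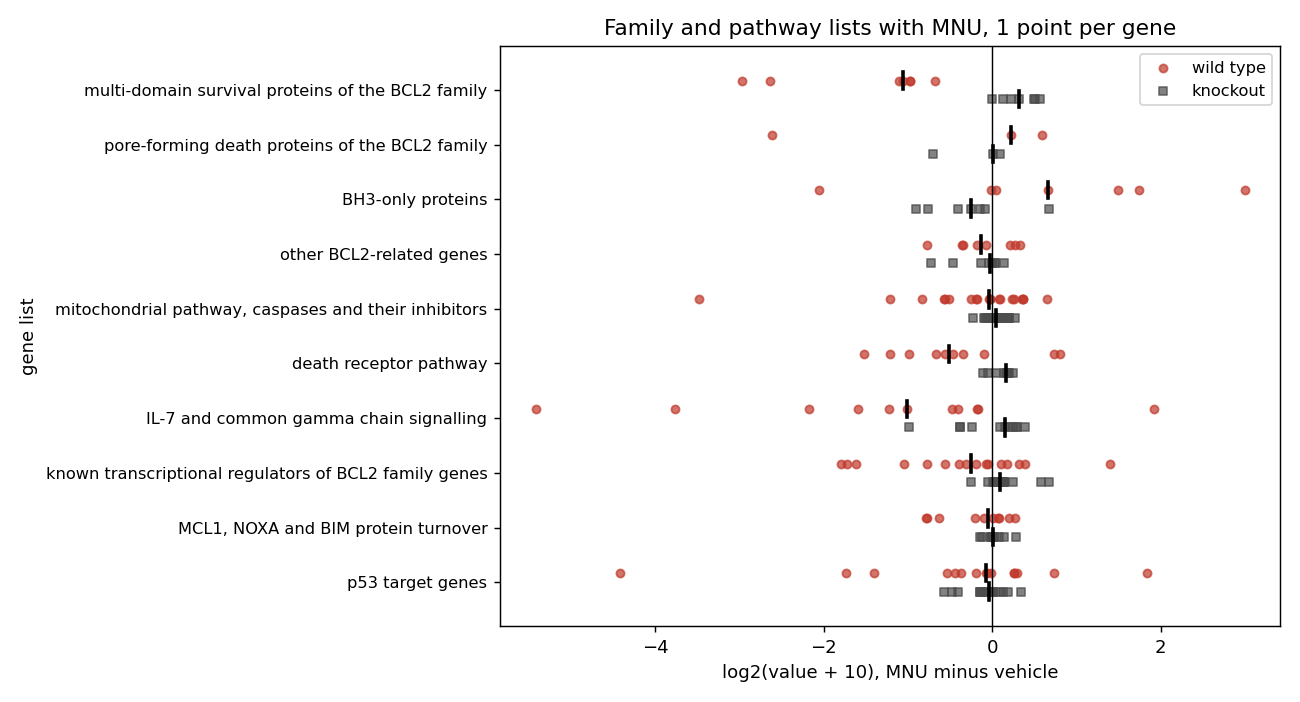
Difference with MNU on the log2(value + 10) scale for each measured gene of 10 family and pathway lists, 1 point per gene, in wild type (red circles) and knockout (dark squares), with black bars at the list medians. For the survival list the wild-type median is -1.06 and the knockout median 0.32, and for the IL-7 list they are -1.02 and 0.15. The survival list of 7 measured genes holds the 3 A1 copies, which are not separate measurements, and its wild-type median is the value of Bcl2a1a.

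Markers of the cell types in the thymus also differed between the libraries, and in whole tissue fewer cells of a type and less RNA per cell cannot be told apart. Il7r is also on the list of mature T cell markers and Il2ra on that of early thymocytes. Ccr9 is on both the double-positive and the dendritic list. The marker counts with MNU in wild type stand beside 7.14% of all genes higher and 14.2% lower. Of 10 mature single-positive T cell markers, among them Il7r and Ccr7, 7 were lower and 1 higher with MNU in wild type, at summed levels of 29268 without and 13492 with MNU. Of 13 double-positive thymocyte markers 7 were lower and 1 higher (413677 and 187246), and of 8 early thymocyte markers 6 were higher and 1 lower (20241 and 154302). Most of the early thymocyte sum with MNU came from Notch1 (76273), Dtx1 (35307) and Notch3 (25218). Gata3 was the lower marker (2910 and 1305), and Lmo2 was within 2-fold (309 and 265). Dendritic markers were lower in 7 of 7 (153219 and 10008). In vehicle wild type most of that sum came from Cd74 (53719), Ccr9 (31047), H2-Ab1 (24103), H2-Aa (20551) and H2-Eb1 (18597), and Itgax stood at 930. The sum is thus not a measure of dendritic cells alone. B cell markers were lower in 5 of 8 with 1 higher (3803 and 2827). Thymic epithelial markers were lower in 10 of 12 (72828 and 2658), with Foxn1, a defining epithelial factor of the thymus, listed at 0. Neutrophil markers were higher in 4 of 5 (1541 and 4359) and macrophage markers in 5 of 11 (31986 and 60017), as were 4 of 7 fibroblast and endothelial markers (22620 and 56723). NK cell markers were lower in 3 of 5 with 1 higher (2421 and 2008), adipocyte markers in 8 of 9 (53143 and 10254), with Lep listed at 0, and red cell markers in 0 of 4 (59419 and 36456). In vehicle and MNU knockout the summed levels were 29734 and 36460 for mature T cell markers, 289903 and 359368 for double-positive markers, 40511 and 20289 for early thymocyte markers, 172725 and 196420 for dendritic markers and 78082 and 59955 for epithelial markers. With the share subtracted the vehicle knockout sums were 32683 for mature T cell markers, 308549 for double-positive markers and 19843 for early thymocyte markers, the last close to the 20241 of vehicle wild type. Macrophage markers summed to 51522 in vehicle knockout (49979 with the share subtracted) and 62257 in MNU knockout, the latter near the 60017 of MNU wild type. Some lists also differed with MNU in the knockout. Neutrophil markers were higher in 4 of 5 (2441 and 2889) and red cell markers in 4 of 4 (20136 and 42920). Adipocyte markers were lower in 8 of 9 (53868 and 18133), early thymocyte markers in 3 of 8 and fibroblast and endothelial markers in 2 of 7 (32400 and 20258). These counts stand beside 0.331% of all genes higher and 2.95% lower with MNU in the knockout. They rest on the vehicle knockout library and were not repeated with the share subtracted. Its sums were then 2093 for neutrophil, 17172 for red cell, 61790 for adipocyte and 27982 for fibroblast and endothelial markers. The subtracted early thymocyte sum of 19843 was close to the 20289 of MNU knockout. Red cell markers were lower in 4 of 4 in vehicle knockout than in vehicle wild type, against 0.359% of all genes, and NK cell markers higher in 3 of 5, against 2.59%. The red cell markers measured were Hba-a1 with Hba-a2 and Hbb-b1 with Hbb-b2. Values within each of these pairs were nearly equal, so the markers are not separate measurements. The MNU knockout held 8 of 8 B cell markers at least 2-fold above vehicle wild type (summed level 10073, and 6215 in vehicle knockout), against 1.57% of all genes. Bcl2a1b was also highest in that library. The part of these cell types in the levels of Bcl2, Pmaip1, Bcl2a1b and Bcl2l11 was not tested.

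For the 4 members that differed at least 2-fold between any libraries, the genes with the closest profile were sought among 9555 genes, by Euclidean distance of the centred log2(value + 10) values over the 4 libraries. For Bcl2 they were Serpine2 (distance 0.049), Ifi27l1 (0.062) and Gbp2 (0.078). For Bcl2a1b they were Lat2 (0.030), Tmem86a (0.056) and its own copy Bcl2a1d (0.11). For Bcl2l11 they were Cyth3 (0.041), Egln3 (0.044) and Nefh (0.049), and for Pmaip1 Tnfrsf4 (0.13), Pacsin1 (0.13) and Plcb2 (0.15). With 4 libraries such likeness rests mainly on MNU wild type.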

How the data were processed

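Total RNA from thymus, with integrity numbers above 7.5, had been made into TruSeq libraries, per the labels' protocols. The submitters' processing notes list TopHat2 2.0.8b, edgeR and the build mm9 but not what each was used for. No source used here states how genes were counted, annotated and filtered. The deposited signal per gene is named normalised counts, per the file headers. It was never negative and not whole, with low values near steps of 1 unit, so no count model or counting interval was applied and the precision of single values is unknown.

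Groups came from the labels. With pandas 2.3.3 (Python 3.11.15), values were set on a log2 scale after a pseudocount of 10 was added, and genes whose mean reached 10 were kept (10587 of 10598, all members included). Genes were called at 2-fold on that scale, which understates differences of low genes, while printed folds and ratios of single genes are of the normalised counts themselves. The share of the wild-type MNU profile in the vehicle knockout library was the median over 42 genes, and the subtraction rescales the remainder. Exon lengths came from GENCODE M21 and upstream sequences from RefSeq, both GRCm38. Up to 4 genes of a list were named by the size of their difference where a library reached 100, besides further regulators and markers named for their roles, after their values were seen. Some genes that this rule would name are not reported here. The members, lists and rules were chosen with earlier results of these data known. Alternatives were other pseudocounts, filters, scalings and fold rules, the subtraction, and the replacement of that knockout library. The fold rule was tested on simulated data with counting noise only, and the share on a mixture computed without noise. Neither test gives the error of the values here.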

Additional observations from a re-analysis of the deposited data

Results flagged for a closer look

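The MNU change had opposite directions in wild type and knockout for 8 members, each from 1 library per group, so that the difference was not tested. The same held for 65.4% of all genes, and for 7 members and 45.8% of all genes with the share of the wild-type MNU profile subtracted from the vehicle knockout library, a share that by itself moves the knockout change opposite to the wild-type change. The difference of the changes, knockout minus wild type on the log2 scale, was 3.10 for Bcl2, 1.29 for Bcl2l1, 0.90 for Mcl1, 1.46 for Bcl2a1b, -1.90 for Bcl2l11, -0.30 for Bbc3, 2.73 for Pmaip1 and -0.81 for Bid. For Bcl2 the knockout change turned from 0.13 to -0.087 with that share subtracted, so that its direction was then lower in both genotypes. With median-of-ratios or upper-quartile scaling, Bax also had opposite directions, at -0.013 and -0.0067 in the knockout. No group had the 4 libraries needed to look for an outlying sample.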

How the results depend on the processing

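No paired analysis was possible because each group had 1 library and the labels give no replicate numbers. Of 612 alternative values of single members, medians and pairs, 609 kept their side of 2-fold, and 0 called values changed sign. Some of the 612 could not change. The other filters kept all members and so left these values as they were. The subtraction left pair values without the vehicle knockout library as they were. With upper-quartile scaling 5 members instead of 3 passed with MNU in wild type, as Bcl2l1 (-1.01) and Bcl2a1b (-1.004) crossed the rule, while the log2 change of Bcl2l11 to Bcl2l1 in vehicle knockout went to 0.69 with the share subtracted. At 1.5-fold, 8 members passed for MNU in wild type, 1 for MNU in the knockout, 1 in knockout against vehicle wild type, 7 in knockout against MNU wild type and 1 in MNU knockout against vehicle wild type. The genes of the whole table that passed were then 4225, 760, 763, 4305 and 733, against 2256, 347, 312, 2366 and 283 at 2-fold and 945, 83, 96, 991 and 56 at 4-fold. At 4-fold 2 members instead of 4 passed in knockout against MNU wild type. Small values within 2-fold did change sign. In the MNU comparison of the knockout, Bax turned to -0.013 with median-of-ratios and -0.0067 with upper-quartile scaling and Bcl2 to -0.087 with the share subtracted, and in knockout against vehicle wild type the subtraction turned Bax (-0.047) and Bid (-0.063). With vehicle wild type in place of the vehicle knockout library, Bcl2l1 (-0.32), Mcl1 (-0.080), Bak1 (-0.042) and Bcl2l11 (0.024) turned in the MNU comparison of the knockout, and with MNU knockout in its place Pmaip1 turned to 0.40 and Bid to -0.071 against wild type. The count of members with opposite MNU changes in the genotypes, from 8 in the main values, was then 6 with vehicle wild type in that place. Of all genes, 65.4% had opposite changes in the main values and 49.6% with that replacement. The depth of the libraries in reads is unknown, so the counting error of low genes such as Pmaip1 and Bik cannot be given.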
